A study of Rattus norvegicus with 9 samples.

Results

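The genes described here copy the genome before a cell divides. They are 37 symbols taken from the read count table by name, covering the G1/S switch, the replication machinery and the supply of deoxynucleotides. Rows were present for 35 of the 37 among 17327 rows in all, and E2f2 and Chaf1a had no row. All 35 passed the filter on low counts. RNA sequencing was done on primary ventricular cardiomyocytes of newborn rats (NRVMs) in 3 groups of 3 samples. Cells received 50 µM phenylephrine, an agonist of alpha-adrenergic receptors, or 10 nM IGF1, a growth factor, or vehicle, and RNA was taken after 48 hours of treatment. Both agents served to induce hypertrophic growth. The labels name no rat strain and are silent on whether replicates were cultured separately, so the p-values reflect a spread that could be technical.

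In a dividing cell, replication origins are licensed in G1 when the origin recognition complex, Cdc6 and Cdt1 load the MCM helicase ring onto DNA. At the G1/S switch, cyclin E with its kinase Cdk2 releases E2F transcription factors from the retinoblastoma proteins, and E2F factors drive transcription of most genes in this set. Cardiac myocytes of rodents still replicate DNA around birth and leave the cell cycle in the first weeks of life, so the neonatal culture is a common model for both cell growth and the remaining capacity to enter S phase.

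Total counts ran from 31274396 to 48505265 per sample. Levels are CPM, reads of a gene relative to the library's total, with TMM factors, and 1 CPM rested on 29.1 to 51.6 reads. The lowest count of a member in any sample was 81 reads, for Orc1, and the highest was 16404 reads, for Rrm1. CPM is not corrected for transcript length, so levels are compared between samples and not between genes. IGF1 replicate 1 stood apart from its group. In that sample 323 genes differed over 1.5-fold from both of the other IGF1 samples, against 10 to 66 genes for every other sample. The members lay at a median log2 of -0.12 in it relative to the other IGF1 samples, against medians of -0.066 to 0.086 for the samples of the other groups within their own group. Counts of calls are therefore also given without it. All 10 cardiomyocyte markers were expressed, with summed levels of 58174 to 58804 CPM with phenylephrine, 51345 to 64602 CPM with IGF1 and 46064 to 49824 CPM with vehicle. Myh7 gave the most to the sum in each group (means of 27614, 21509 and 21674 CPM in that order), and the 64602 CPM was IGF1 replicate 1. These markers moved in both directions, with 6 higher and 4 lower with phenylephrine, and 6 higher and 1 lower with IGF1, against vehicle. At the same threshold, given below, the shares of all genes tested were 27.9% and 28.9% with phenylephrine, and 24.7% and 23.4% with IGF1.

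Most replication genes were higher with IGF1 than with vehicle. Of the 35 members, 29 passed the threshold as higher (adjusted p under 0.05, edgeR's quasi-likelihood test, Benjamini-Hochberg adjustment over the 11873 genes tested). Among all genes tested, 24.7% were called higher and 23.4% lower. All 35 members had a positive log2 fold change, although scaling by library size alone turned Orc1, Mcm7, Rfc3 and Lig1 slightly negative. With no negative value in the main fit, edgeR could call 0 lower at any p, and DESeq2 and limma-voom also called 0 lower. The median log2 fold change was 0.43 (1.35-fold) over the members and -0.0018 over all genes tested. The changes were mostly small. Only Rrm2 and Tk1 rose at least 2-fold, and 9 members rose at least 1.5-fold, against 5.76% of all genes (5.9% fell that far). In 31 members every IGF1 sample lay above every vehicle sample, and in 0 below, against 28.8% and 27.7% of all genes. Without IGF1 replicate 1, 32 members were called higher, against 27.4% of all genes tested (26.6% were lower), and the median was 0.47.

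With phenylephrine the same genes did not move as a block. Relative to vehicle, 5 members were higher and 9 lower, against 27.9% and 28.9% of all genes tested. Samples of the 2 groups did not overlap for 7 members that were higher and 9 that were lower, against 32.6% and 34% of all genes. Gmnn alone was past 1.5-fold upward and 0 members downward, against 7.57% and 10% of all genes. The median was -0.04, beside -0.029 for all genes tested. The 5 that rose were Gmnn, Mcm5, Gins2, Prim1 and Pole. The 9 that fell were Rrm2, Tk1, Tyms, Ccne1, Ccne2, Uhrf1, Mcm7, Rfc3 and Rpa2. Both stimuli were compared with the same 3 vehicle samples, so the 2 comparisons are not independent. Without IGF1 replicate 1, which enters the shared estimate of spread, 7 were higher and 11 lower, against 31.2% and 32.2% of all genes. When libraries were scaled by their size alone, without TMM factors, the median over all genes moved to -0.22. Then 1 member was called higher and 21 lower, where 1751 and 5696 of all 11873 genes were. The count of rises was 3 without vehicle replicate 2, where 2864 of 11948 genes were called higher, and 3 without phenylephrine replicate 3, where 3001 of 12031 were, against 3310 of 11873 with all samples.

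**Figure D1:**
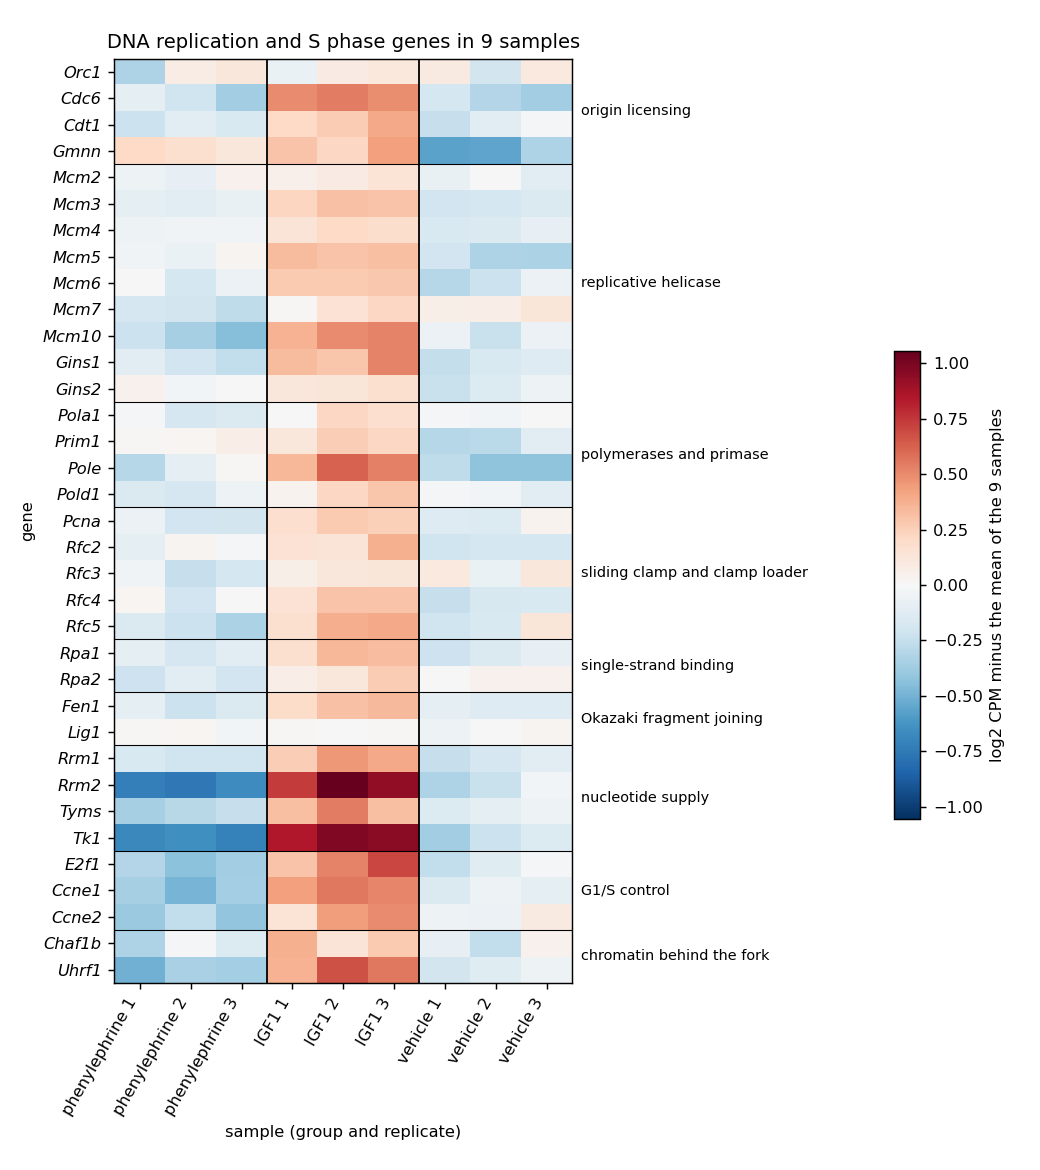
Level of each of 35 replication genes (rows, grouped by role) in the 9 samples (columns), as log2 CPM minus the mean of the 9 samples, with red above and blue below that mean. The 3 IGF1 columns are red for nearly every gene, and the largest contrasts are in the Rrm2 and Tk1 rows, while the Lig1 row is nearly uniform.

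Markers of other cells that such cultures can hold were read in the same samples. In bulk samples, fewer cells of a type and less RNA per cell cannot be told apart. Of 11 fibroblast markers, 10 were tested. With IGF1 against vehicle 5 of them rose and 1 fell, where 24.7% and 23.4% of all genes tested did. With phenylephrine 1 rose and 4 fell, where 27.9% and 28.9% of all genes did. Their summed level ran from 4736 to 4828 CPM with phenylephrine, 5976 to 6901 CPM with IGF1 and 5089 to 6086 CPM with vehicle. Col1a1 gave the most to this sum in each group. The 10 endothelial markers summed to 63.6 to 76.3 CPM with phenylephrine, 35.8 to 42.0 CPM with IGF1 and 79.4 to 87.0 CPM with vehicle, a sum to which Kdr gave the most in each group. With phenylephrine 1 of the 9 tested rose (Egfl7), 1 fell (Kdr) and 7 were not called, and with IGF1 5 fell and 0 rose. Smooth muscle and pericyte markers moved in both directions, with 4 of 10 higher and 3 lower with phenylephrine, and 1 higher and 2 lower with IGF1. The shares of all genes given for the fibroblast markers hold for the endothelial and the smooth muscle calls too. Smooth muscle and pericyte markers summed to 2829 to 2895 CPM with phenylephrine, 1868 to 2420 CPM with IGF1 and 1993 to 2098 CPM with vehicle. The 2420 CPM was IGF1 replicate 1. Macrophage and leukocyte markers summed to 69.3 to 87.6 CPM, 70.1 to 77.5 CPM and 75.8 to 86.2 CPM in the same order of groups. Col1a2, Cldn5, Cd163 and C1qb were at or near 0 in every sample, with at most 0.36 CPM. Col1a1 averaged 3082 CPM with phenylephrine, 3360 CPM with IGF1 and 3460 CPM with vehicle, and why the Col1a2 row was so low beside it was not tested. The part of any of these cells in the levels of the replication genes was not tested.

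Of the 4 licensing genes, Cdc6, Cdt1 and Gmnn rose with IGF1. Cdc6, the ATPase that helps to load MCM rings, had 9.24, 8.51 and 7.63 CPM with phenylephrine, 13.9, 14.3 and 13.9 CPM with IGF1 and 8.65, 7.94 and 7.64 CPM with vehicle. The IGF1 samples lay above all others, and phenylephrine and vehicle samples overlapped. Cdc6 was 1.74-fold higher with IGF1 (log2 fold change 0.80, SE 0.091, adjusted p = 5.1e-06), and phenylephrine gave log2 0.065, SE 0.096, adjusted p = 0.58. Cdt1, its partner in loading, had 12.2, 13.0 and 12.7 CPM with phenylephrine, 16.4, 17.1 and 18.8 CPM with IGF1 and 12.0, 13.1 and 14.1 CPM with vehicle, again with only the IGF1 samples apart. It rose 1.34-fold with IGF1 (log2 0.42, SE 0.082, adjusted p = 6.5e-04), and its value with phenylephrine was log2 -0.049, SE 0.085, adjusted p = 0.65. Geminin (Gmnn), the inhibitor that binds Cdt1 and blocks a second round of licensing, was the member with the largest rise under phenylephrine.

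Gmnn had 16.5, 15.988 and 15.5 CPM with phenylephrine, 17.5, 16.6 and 19.2 CPM with IGF1 and 9.64, 9.70 and 11.3 CPM with vehicle. Every stimulated sample lay above every vehicle sample. It rose 1.56-fold with phenylephrine (log2 fold change 0.64, SE 0.087, adjusted p = 1.8e-05) and 1.74-fold with IGF1 (log2 fold change 0.80, SE 0.086, adjusted p = 2.8e-06). The direct contrast of phenylephrine with IGF1 was -0.15 (SE 0.086, 95% interval -0.36 to 0.056, adjusted p = 0.15) and did not pass. It was the 1 member still called higher with phenylephrine when samples were scaled by library size only. Orc1, the largest subunit of the origin recognition complex, had 2.78, 3.68 and 3.78 CPM with phenylephrine, 3.32, 3.70 and 3.77 CPM with IGF1 and 3.72, 3.05 and 3.74 CPM with vehicle. Its samples overlapped in every pair of groups. The 95% interval for Orc1 was -0.43 to 0.35 (log2) with phenylephrine and -0.34 to 0.42 with IGF1, so changes inside these intervals remain compatible with the data.

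The MCM2-7 ring is the motor of the replicative helicase and holds 1 copy of each of its 6 subunits. All subunit genes but Mcm7 rose with IGF1, with log2 fold changes of 0.16 for Mcm2, 0.31 for Mcm4, 0.46 for Mcm3, 0.47 for Mcm6 and 0.60 for Mcm5. With phenylephrine, Mcm3 (log2 0.082, SE 0.045, adjusted p = 0.14), Mcm4 (log2 0.089, SE 0.041, adjusted p = 0.078) and Mcm6 (log2 0.11, SE 0.061, adjusted p = 0.14) did not pass, and their values turned negative with scaling by library size only. Mcm4 passed as higher without IGF1 replicate 1 (adjusted p = 0.029) and Mcm6 without vehicle replicate 3 (0.024). Mcm5 had 41.1, 40.2 and 43.0 CPM with phenylephrine, 53.1, 52.1 and 52.5 CPM with IGF1 and 36.6, 33.7 and 33.6 CPM with vehicle. The 3 groups did not overlap, with IGF1 highest and vehicle lowest. It rose 1.52-fold with IGF1 (log2 fold change 0.60, SE 0.05, adjusted p = 1.9e-07) and 1.19-fold with phenylephrine (log2 fold change 0.26, SE 0.051, adjusted p = 5.5e-04). That second call ended with scaling by library size only (log2 0.062, adjusted p = 0.37). Mcm2 had the smallest value of these, at 67.3, 65.6 and 72.1 CPM with phenylephrine, 72.1, 73.9 and 77.1 CPM with IGF1 and 66.1, 69.6 and 64.6 CPM with vehicle. Its IGF1 samples lay just above the rest (log2 0.16, SE 0.049, adjusted p = 0.015). That call ended without vehicle replicate 1 (adjusted p = 0.067), vehicle replicate 3 (0.086) or IGF1 replicate 3 (0.085), and under library-size scaling (0.33).

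Mcm7 was the ring subunit not called with IGF1. It had 58.4, 57.4 and 54.5 CPM with phenylephrine, 66.6, 73.3 and 76.5 CPM with IGF1 and 68.6, 69.2 and 71.9 CPM with vehicle. IGF1 and vehicle samples overlapped, and all phenylephrine samples lay below both. It was 1.23-fold lower with phenylephrine (log2 fold change -0.30, SE 0.053, adjusted p = 2.2e-04), whereas IGF1 gave log2 0.046, SE 0.052, adjusted p = 0.49. Without IGF1 replicate 1, the IGF1 value was 0.10 and passed (adjusted p = 0.045). With phenylephrine against IGF1, Mcm7 at -0.35 was close to Mcm5 at -0.34 and Mcm6 at -0.36. Mcm10, a factor that activates the loaded helicase, had 8.93, 8.22 and 7.66 CPM with phenylephrine, 13.5, 14.7 and 15.025 CPM with IGF1 and 9.99, 8.87 and 10.0 CPM with vehicle. It rose with IGF1 (log2 0.58, SE 0.09, adjusted p = 8.6e-05). With phenylephrine it was log2 -0.22, SE 0.095, adjusted p = 0.058, and it passed as lower without IGF1 replicate 1 (0.036), vehicle replicate 2 (0.031) or phenylephrine replicate 1 (0.039). The GINS subunits, which join MCM2-7 and Cdc45 in the active helicase, rose with IGF1 at log2 0.57 for Gins1 and 0.28 for Gins2. Gins2 also rose 1.11-fold with phenylephrine (log2 0.15, SE 0.055, adjusted p = 0.033). That call ended without any 1 of vehicle replicate 1 or 2, phenylephrine replicate 1 or 3, or IGF1 replicate 2 or 3 (adjusted p = 0.058 to 0.22), and the value turned to -0.046 with scaling by library size only.

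The promoters of these genes were read for shared letters. RefSeq promoters (build GRCr8, 250 bases before to 50 after a start site) were matched by symbol for 29 of the 35 members, 31 promoters in all because Uhrf1 had 3. None was matched for Orc1, Cdc6, Mcm4, Rrm2, E2f1 and Ccne2. The counts were made on rn5, so coordinates below belong to GRCr8 only. The core letters of E2F sites were searched on both strands in 4 forms. The forms were TTCCCGC, the variant TTGGCGC, the variant TTCGCGC and the variant TTGCCGC. At least 1 occurred in 24 of 31 member promoters (77.4%), against 9.52% of all 33469 promoters of the same length and 17.1% of 9417 promoters of genes tested. With a further T before them (8 letters, which contain the 7), the shares were 48.4%, 2.14% and 3.83%. The CCAAT box was in 64.5% of member promoters, 37.5% of all and 3483 of the 9417 of genes tested. TTTGAA, the core of a late cell cycle element, was in 3.23%, 18.3% and 11.2% of these sets. The E2F letters were in 19 of 26 promoters of members higher with IGF1 and in all 5 promoters of members not called (Lig1, Rpa2, Rfc3, Mcm7 and Pola1). Orc1, also not called, had no promoter to read. With phenylephrine the letters were in 4 of 5 promoters of members that rose, 6 of 9 promoters of those that fell and 14 of 17 of the rest. These are counts of promoters and not of members. Uhrf1 supplied 3 of the 26 promoters in the IGF1 count and 3 of the 9 in the phenylephrine count. Rrm2 and Ccne2, which also fell with phenylephrine, had no promoter matched. A match describes letters and not a bound site.

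The promoters of Mcm5 and Mcm7 are shown because they are subunits of 1 ring with different calls, Gmnn because it rose with both stimuli, and Tyms because it moved in opposite directions. Capitals mark the E2F letters on either strand. Mcm5 lies at chr19:13488563-13488862, plus strand, Mcm7 at chr12:22163129-22163428, minus strand, Gmnn at chr17:40729584-40729883, plus strand and Tyms at chr9:120776034-120776333, minus strand, all in GRCr8 and written 5′ to 3′ along the gene.
Mcm5: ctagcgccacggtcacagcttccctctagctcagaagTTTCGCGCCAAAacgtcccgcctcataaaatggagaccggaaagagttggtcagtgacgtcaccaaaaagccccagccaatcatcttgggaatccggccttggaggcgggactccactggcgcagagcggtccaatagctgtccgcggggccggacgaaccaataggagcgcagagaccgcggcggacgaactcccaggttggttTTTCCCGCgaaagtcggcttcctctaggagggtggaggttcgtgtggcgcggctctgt
Mcm7: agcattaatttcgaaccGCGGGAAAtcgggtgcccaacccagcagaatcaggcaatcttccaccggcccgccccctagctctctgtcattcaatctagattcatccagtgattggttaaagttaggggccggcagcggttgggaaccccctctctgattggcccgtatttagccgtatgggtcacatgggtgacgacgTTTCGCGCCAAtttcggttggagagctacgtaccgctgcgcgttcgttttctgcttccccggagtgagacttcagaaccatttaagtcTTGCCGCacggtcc
Gmnn: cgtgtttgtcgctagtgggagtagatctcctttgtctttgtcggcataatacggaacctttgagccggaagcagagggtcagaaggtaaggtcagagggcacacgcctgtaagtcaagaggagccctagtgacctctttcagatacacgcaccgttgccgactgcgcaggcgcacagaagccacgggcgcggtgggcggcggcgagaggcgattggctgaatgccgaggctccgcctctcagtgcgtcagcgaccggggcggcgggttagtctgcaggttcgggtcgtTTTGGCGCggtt
Tyms: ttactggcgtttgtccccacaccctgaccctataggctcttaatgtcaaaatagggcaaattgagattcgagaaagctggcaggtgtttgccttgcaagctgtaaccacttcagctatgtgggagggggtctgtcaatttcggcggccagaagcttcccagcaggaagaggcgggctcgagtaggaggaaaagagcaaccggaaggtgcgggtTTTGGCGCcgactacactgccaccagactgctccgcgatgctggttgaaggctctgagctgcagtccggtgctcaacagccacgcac
Mcm7 and Mcm5 both held several runs of these letters, and Gmnn and Tyms held 1 each.

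Of the 4 polymerase and primase members, Pole, the catalytic subunit of the leading-strand enzyme, had the highest fold change with IGF1. It had 22.3, 25.7 and 27.9 CPM with phenylephrine, 35.2, 42.5 and 39.9 CPM with IGF1 and 22.8, 20.6 and 20.6 CPM with vehicle. IGF1 samples lay far above the others, and phenylephrine and vehicle samples overlapped. Pole was 1.84-fold higher with IGF1 (log2 fold change 0.88, SE 0.085, adjusted p = 1.0e-06) and 1.19-fold higher with phenylephrine (log2 0.24, SE 0.087, adjusted p = 0.027). That second call ended without vehicle replicate 2 (adjusted p = 0.1), vehicle replicate 3 (0.11), phenylephrine replicate 2 (0.077) or phenylephrine replicate 3 (0.14). It also ended with scaling by library size only (log2 0.051, 0.7). Prim1, the primase that makes the RNA starters, had 46.3, 46.7 and 48.4 CPM with phenylephrine, 50.1, 55.1 and 53.4 CPM with IGF1 and 37.4, 37.8 and 42.2 CPM with vehicle, with no overlap between the 3 groups. It rose 1.35-fold with IGF1 (log2 0.43, SE 0.055, adjusted p = 1.4e-05) and 1.20-fold with phenylephrine (log2 0.27, SE 0.056, adjusted p = 9.0e-04). With scaling by library size only, the phenylephrine value was 0.073 and did not pass (adjusted p = 0.38).

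Pola1, the polymerase alpha subunit that extends those starters, had 22.8, 20.3 and 20.6 CPM with phenylephrine, 23.0, 26.8 and 25.9 CPM with IGF1 and 22.8, 22.6 and 22.9 CPM with vehicle. It passed against vehicle with neither stimulus (log2 0.15, SE 0.07, adjusted p = 0.083 for IGF1, and log2 -0.097, SE 0.071, adjusted p = 0.26 for phenylephrine), although every IGF1 sample lay above every vehicle sample. Without IGF1 replicate 1 the IGF1 value was 0.21 and passed (adjusted p = 0.0054). Pold1, the catalytic subunit of the lagging-strand polymerase, rose 1.19-fold with IGF1 (log2 0.25, SE 0.07, adjusted p = 0.009). Its call ended without vehicle replicate 3 (adjusted p = 0.051) or IGF1 replicate 3 (0.066) and under library-size scaling (0.14).

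**Figure D2:**
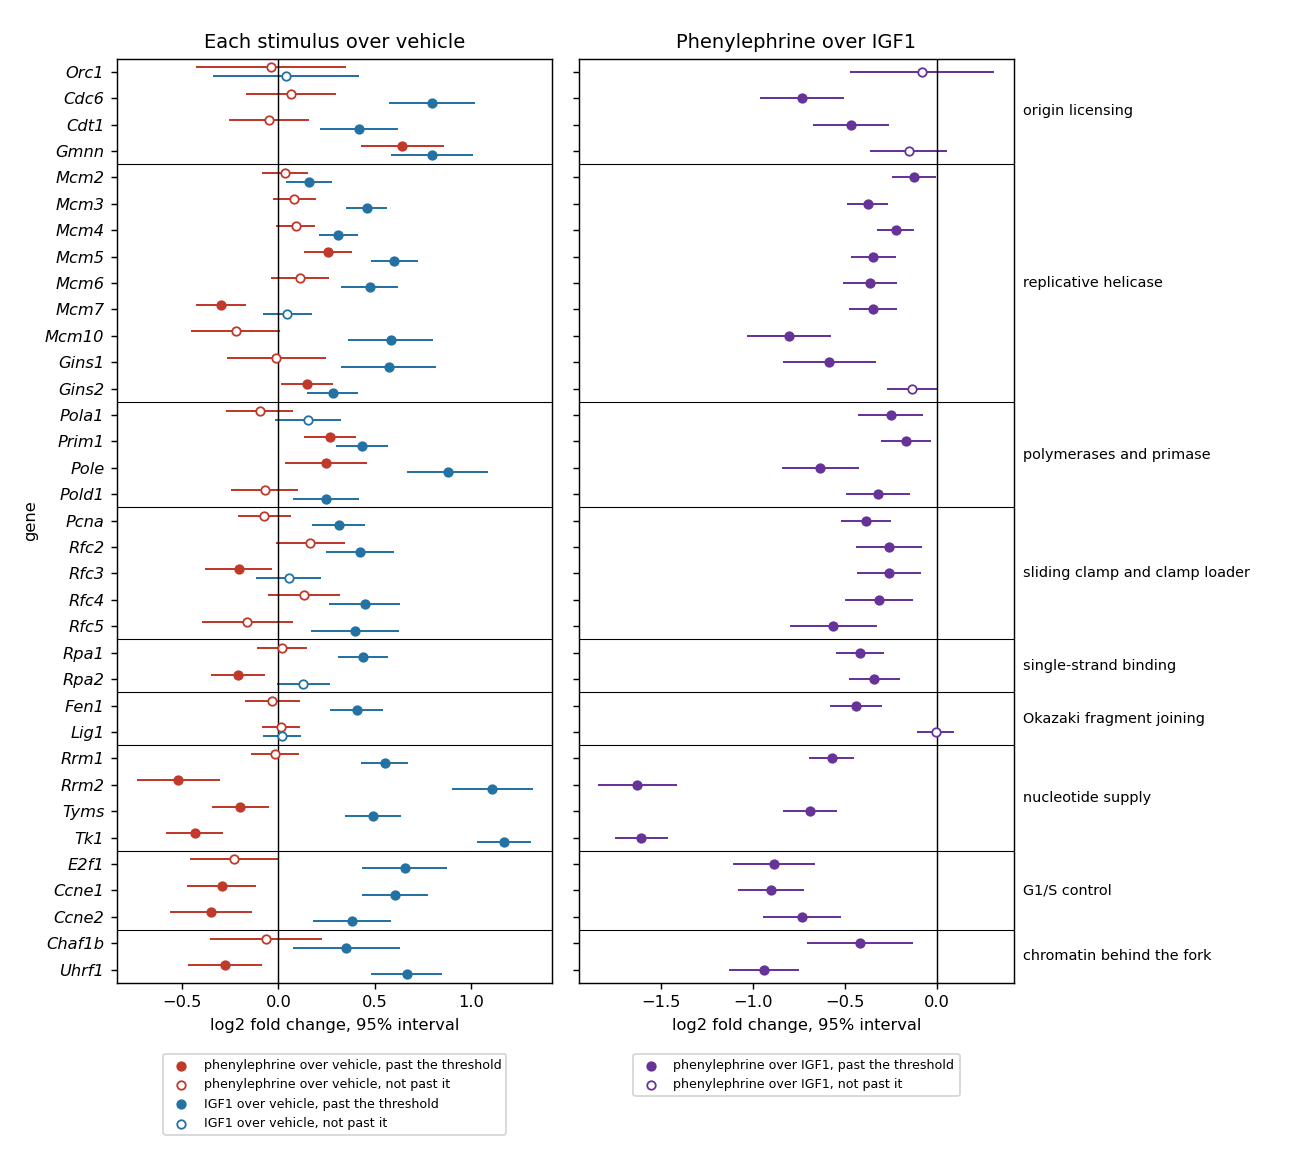
Log2 fold change of each of 35 members with its 95% interval, for each stimulus over vehicle (left) and for phenylephrine over IGF1 (right), with filled points past the adjusted p threshold of 0.05. In the left plot every IGF1 value lies to the right of 0 under TMM scaling (4 turn negative with library size alone) while phenylephrine values lie on both sides, and in the right plot all values are negative.

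Pcna, the sliding clamp that holds polymerases on DNA, had 106, 95.8 and 96.8 CPM with phenylephrine, 125, 134 and 131 CPM with IGF1 and 100.3, 100.2 and 113 CPM with vehicle. Only the IGF1 samples stood apart. Pcna rose 1.24-fold with IGF1 (log2 fold change 0.31, SE 0.056, adjusted p = 3.1e-04), and phenylephrine gave log2 -0.073, SE 0.056, adjusted p = 0.29. The clamp loader subunits Rfc2, Rfc4 and Rfc5 rose with IGF1 at log2 0.42, 0.45 and 0.40. Rfc4 had 18.7, 16.020 and 18.5 CPM with phenylephrine, 20.6, 22.7 and 22.8 CPM with IGF1 and 15.6, 16.4 and 16.5 CPM with vehicle. Rfc2 had 21.6, 23.7 and 22.9 CPM with phenylephrine, 25.8, 25.5 and 30.2 CPM with IGF1 and 20.0, 20.4 and 20.4 CPM with vehicle. In both genes the IGF1 samples were the highest, and the phenylephrine samples lay above vehicle without overlap in Rfc2 only. Phenylephrine gave values that did not pass (log2 0.16, SE 0.073, adjusted p = 0.067 for Rfc2, and log2 0.13, SE 0.077, adjusted p = 0.15 for Rfc4). Rfc2 passed as higher with phenylephrine without IGF1 replicate 1 (adjusted p = 0.025), and Rfc4 without phenylephrine replicate 2 (0.047).

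Rfc3 was the loader subunit not called with IGF1, at 23.3, 20.2 and 21.1 CPM with phenylephrine, 25.048, 26.1 and 26.1 CPM with IGF1 and 25.7, 22.9 and 26.0 CPM with vehicle. IGF1 and vehicle samples overlapped, and so did phenylephrine and vehicle samples. It was lower with phenylephrine (log2 -0.21, SE 0.071, adjusted p = 0.022) and did not pass with IGF1 (log2 0.052, SE 0.069, adjusted p = 0.57). The phenylephrine call ended without vehicle replicate 1 (adjusted p = 0.063), vehicle replicate 3 (0.071), phenylephrine replicate 2 (0.1) or phenylephrine replicate 3 (0.074). Rpa1 and Rpa2 are subunits of replication protein A, which coats single-stranded DNA. Rpa1 had 76.5, 72.9 and 76.2 CPM with phenylephrine, 92.9, 105 and 103 CPM with IGF1 and 70.7, 74.3 and 77.8 CPM with vehicle and rose 1.35-fold with IGF1 (log2 0.44, SE 0.053, adjusted p = 8.7e-06), while phenylephrine gave log2 0.018, SE 0.054, adjusted p = 0.79. Rpa2 had 36.0, 38.5 and 36.3 CPM with phenylephrine, 43.9, 45.5 and 50.5 CPM with IGF1 and 41.7, 43.2 and 43.3 CPM with vehicle. It fell with phenylephrine (log2 -0.21, SE 0.057, adjusted p = 0.0058), its 3 phenylephrine samples lying below all others, and was log2 0.13, SE 0.056, adjusted p = 0.07 with IGF1. Without IGF1 replicate 1 the IGF1 value of Rpa2 was 0.17 and passed (0.0054).

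A nuclease and a ligase finish the lagging strand. Fen1, the nuclease that trims flaps from Okazaki fragments, had 29.7, 27.1 and 28.5 CPM with phenylephrine, 36.2, 39.1 and 40.0 CPM with IGF1 and 29.6, 28.8 and 28.8 CPM with vehicle. It rose 1.32-fold with IGF1 (log2 0.41, SE 0.057, adjusted p = 3.4e-05) and gave log2 -0.033, SE 0.058, adjusted p = 0.65 with phenylephrine. Lig1, the ligase that seals the fragments, had 85.6, 86.1 and 82.8 CPM with phenylephrine, 85.6, 84.7 and 85.2 CPM with IGF1 and 81.5, 84.3 and 86.4 CPM with vehicle. All 9 samples lay within this narrow range and the groups overlapped. The 95% intervals of Lig1 were -0.086 to 0.11 with phenylephrine and -0.081 to 0.12 with IGF1 on the log2 scale.

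With IGF1, the members with the largest fold changes were Tk1 and Rrm2, both in nucleotide supply. Rrm2, the small subunit of ribonucleotide reductase and its cell cycle controlled partner, had 42.0, 41.2 and 43.8 CPM with phenylephrine, 116, 144 and 132 CPM with IGF1 and 55.2, 59.1 and 67.9 CPM with vehicle. The 3 groups did not overlap, with IGF1 highest and phenylephrine lowest. It averaged 131 ± 14.1 CPM with IGF1 and 60.7 ± 6.52 CPM with vehicle (SD, n = 3 each), a 2.15-fold rise (log2 fold change 1.11, SE 0.085, adjusted p = 1.0e-06). With phenylephrine it averaged 42.3 ± 1.37 CPM and was 1.44-fold lower than with vehicle (log2 fold change -0.52, SE 0.088, adjusted p = 3.7e-04). Tk1, the kinase that salvages thymidine, had 29.1, 29.9 and 28.4 CPM with phenylephrine, 84.0, 92.0 and 90.4 CPM with IGF1 and 36.3, 39.8 and 42.2 CPM with vehicle. Its groups separated in the same order. Tk1 was 2.25-fold higher with IGF1 (log2 fold change 1.17, SE 0.057, adjusted p = 7.5e-10) and 1.35-fold lower with phenylephrine (log2 fold change -0.44, SE 0.06, adjusted p = 2.0e-05).

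Tyms, which makes thymidylate from deoxyuridylate, had 36.6, 38.1 and 39.4 CPM with phenylephrine, 58.0, 67.7 and 58.2 CPM with IGF1 and 42.3, 43.7 and 44.9 CPM with vehicle, with the same order of groups and no overlap. It rose 1.41-fold with IGF1 (log2 0.49, SE 0.059, adjusted p = 8.2e-06) and was lower with phenylephrine (log2 -0.20, SE 0.061, adjusted p = 0.012). The phenylephrine call ended without phenylephrine replicate 1 (adjusted p = 0.061). Rrm1, the large subunit of the reductase, had 233, 226 and 225 CPM with phenylephrine, 313, 358 and 344 CPM with IGF1 and 221, 231 and 241 CPM with vehicle. Its phenylephrine and vehicle samples overlapped and its IGF1 samples lay above both. It rose 1.47-fold with IGF1 (log2 0.55, SE 0.051, adjusted p = 5.2e-07) and gave log2 -0.019, SE 0.051, adjusted p = 0.76 with phenylephrine.

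**Figure D3:**
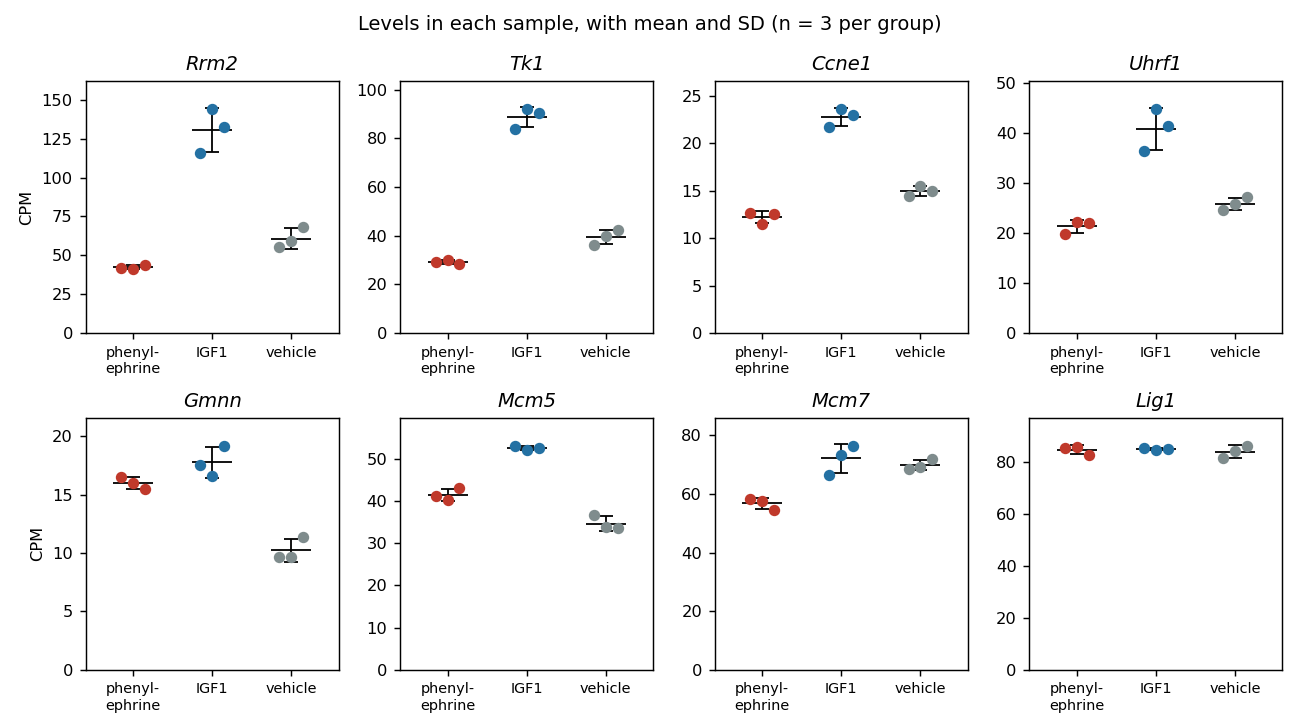
CPM of 8 replication genes in each sample (points) with the mean and SD of the 3 samples of a group (bars), on axes that start at 0. Rrm2, Tk1, Ccne1 and Uhrf1 are lowest with phenylephrine and highest with IGF1, Gmnn and Mcm5 are above vehicle with both, Mcm7 is low with phenylephrine, and Lig1 is level.

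Both E-type cyclins rose with IGF1 and fell with phenylephrine. Ccne1, cyclin E1, had 12.6, 11.4 and 12.5 CPM with phenylephrine, 21.8, 23.6 and 23.0 CPM with IGF1 and 14.4, 15.5 and 15.003 CPM with vehicle, with no overlap between the 3 groups. It rose 1.52-fold with IGF1 (log2 fold change 0.61, SE 0.07, adjusted p = 5.1e-06) and was 1.23-fold lower with phenylephrine (log2 fold change -0.29, SE 0.073, adjusted p = 0.0031). Ccne2, cyclin E2, had 21.1, 23.2 and 20.7 CPM with phenylephrine, 30.7, 37.7 and 39.2 CPM with IGF1 and 26.7, 26.6 and 29.5 CPM with vehicle. It was 1.30-fold higher with IGF1 (log2 0.38, SE 0.084, adjusted p = 0.0017) and 1.27-fold lower with phenylephrine (log2 -0.35, SE 0.087, adjusted p = 0.0031), and its groups did not overlap either. E2f1, the activating E2F factor, had 30.8, 28.2 and 29.6 CPM with phenylephrine, 46.9, 54.6 and 61.9 CPM with IGF1 and 31.7, 34.8 and 37.5 CPM with vehicle. E2f1 rose 1.57-fold with IGF1 (log2 fold change 0.66, SE 0.09, adjusted p = 7.2e-05). With phenylephrine all 3 samples lay below the vehicle samples, but the test just missed the threshold (log2 -0.23, SE 0.094, adjusted p = 0.052). It passed without IGF1 replicate 1 (adjusted p = 0.0011), IGF1 replicate 3 (0.011) or vehicle replicate 1 (0.022), and by DESeq2 (0.043).

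Behind the fork, Uhrf1, which brings the maintenance DNA methyltransferase to newly copied DNA, had 19.7, 22.1 and 21.9 CPM with phenylephrine, 36.3, 44.7 and 41.3 CPM with IGF1 and 24.5, 25.7 and 27.1 CPM with vehicle. The groups did not overlap. It was 1.58-fold higher with IGF1 (log2 fold change 0.66, SE 0.075, adjusted p = 4.4e-06) and 1.21-fold lower with phenylephrine (log2 fold change -0.28, SE 0.079, adjusted p = 0.0077). Chaf1b, a subunit of the histone chaperone CAF-1, was measured at 5.91, 7.26 and 6.69 CPM with phenylephrine, 9.58, 8.11 and 8.93 CPM with IGF1 and 6.95, 6.18 and 7.62 CPM with vehicle. It rose 1.28-fold with IGF1 (log2 0.35, SE 0.11, adjusted p = 0.019). That call ended without vehicle replicate 1 (adjusted p = 0.057), vehicle replicate 2 (0.098) or IGF1 replicate 3 (0.054) and under library-size scaling (0.071). With phenylephrine it was log2 -0.065, SE 0.12, adjusted p = 0.66.

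The stimuli were also compared with each other, in the same model of 3 groups, where the vehicle samples enter the scaling and the estimate of spread. Relative to IGF1, 31 of 35 members were lower with phenylephrine and 0 higher, against 27.1% of all genes tested in each direction. Samples did not overlap in 33 members, all lower, against 29.5% of all genes (29.3% for higher). All 35 log2 fold changes were negative. With no positive value in the main fit, edgeR could call 0 higher at any p, and DESeq2 and limma-voom also called 0 higher. The median was -0.39 over the members and -0.0025 over all genes tested. Rrm2 was 3.09-fold lower with phenylephrine than with IGF1 (log2 fold change -1.63, SE 0.088, adjusted p = 3.2e-08) and Tk1 3.05-fold lower (log2 fold change -1.61, SE 0.059, adjusted p = 1.8e-11), and 10 members were at least 1.5-fold lower, against 10.1% of all genes (7.65% were that much higher). Uhrf1, Ccne1, E2f1 and Mcm10 followed at log2 -0.94, -0.90, -0.89 and -0.80. The 4 that did not pass were Orc1, Gmnn, Gins2 and Lig1. Gins2 was log2 -0.13, SE 0.055, adjusted p = 0.053, and it passed without IGF1 replicate 1 (adjusted p = 0.025), vehicle replicate 1 (0.039) or vehicle replicate 3 (0.038), and in a fit of only these 2 groups (0.047). Without IGF1 replicate 1, 32 members were lower, against 30.2% of all genes (30.4% were higher). The calls of Mcm2 (log2 -0.12, SE 0.049, adjusted p = 0.047), Prim1 (log2 -0.17, SE 0.056, adjusted p = 0.02) and Rfc2 (log2 -0.26, SE 0.073, adjusted p = 0.0073) were the ones that leaving out 1 library ended. For Mcm2 the adjusted p was 0.053 to 0.18 without vehicle replicate 1, phenylephrine replicate 1 or 2, or IGF1 replicate 2 or 3. The Mcm2 call was also lost by DESeq2 (adjusted p = 0.066), with RLE factors (0.054) and in a fit of only these 2 groups (0.057). For Prim1 it was 0.053 to 0.078 without phenylephrine replicate 1 or 2 or IGF1 replicate 2 or 3, and for Rfc2 0.053 without IGF1 replicate 3.

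Other genes of replication, listed by function, were read beside these members. That list, like the members, was chosen with earlier results of these data known. Of 75 listed, 67 were tested. With IGF1 against vehicle 32 rose and 6 fell, against 24.7% and 23.4% of all genes, with a median log2 fold change of 0.23 beside -0.0018 for all genes. The highest were Top2a, the topoisomerase that untangles copied DNA, at 1.32, Ccna2, cyclin A2, at 1.07, and Pole2, a further subunit of the leading-strand polymerase, at 1.01. The lowest were the polymerase delta subunit Pold4 at -0.77 and the retinoblastoma family genes Rbl2 at -0.68 and Rb1 at -0.32. With phenylephrine against vehicle 10 rose and 21 fell, against 27.9% and 28.9% of all genes, with a median of -0.033 beside -0.029 for all genes. The share that fell was close to that of all genes. The highest were nucleotide enzymes, namely Nme1 at 1.14, Umps at 0.62 and Shmt1 at 0.51. The lowest were Rbl2 at -0.77, Top2a at -0.75 and Rnaseh2a, a subunit of the nuclease that removes RNA from DNA, at -0.61. With phenylephrine against IGF1, 8 were higher and 38 lower, against 27.1% of all genes in each direction, and the median was -0.23 beside -0.0025. The highest were Pold4 (0.64), Shmt1 (0.62) and Umps (0.53) and the lowest Top2a (-2.07), Ccna2 (-1.66) and the histone chaperone Asf1b (-1.36).

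Mitosis genes, which act after S phase, had medians farther from 0 than the members. All 24 tested rose with IGF1, where 24.7% of all genes did. The median log2 fold change was 1.4 and the range 0.97 to 1.93, against the median of 0.43 over the replication members. Ccnb1 was at 1.93, the kinesin Kif20a at 1.80 and Ccnb2 at 1.79. With phenylephrine 22 of the 24 fell, where 28.9% of all genes did, with a median of -0.52, against -0.04 over the members. The kinetochore gene Cenpf was at -0.85, Ccnb2 at -0.79 and Kif20a at -0.75. With phenylephrine against IGF1 all 24 were lower, where 27.1% of all genes were. The median was -1.83, and the lowest were Ccnb2 at -2.58, Kif20a at -2.55 and Cenpf at -2.46. The difference between the lists was not tested.

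**Figure D4:**
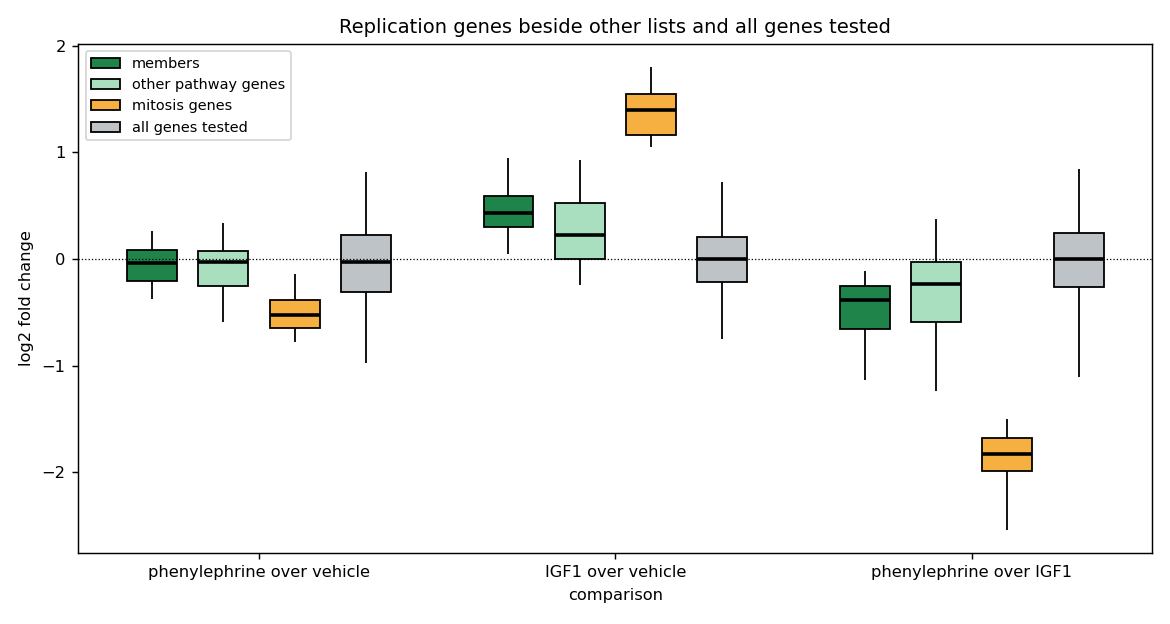
Log2 fold changes in the 3 comparisons for the 35 replication members, 67 other genes of the pathway, 24 mitosis genes and 11873 genes tested, with boxes from the lower to the upper quartile, a bar at the median and lines from the 5th to the 95th percentile. The medians with IGF1 over vehicle are 0.43, 0.23, 1.4 and -0.0018 in that order, and those with phenylephrine over vehicle are -0.04, -0.033, -0.52 and -0.029.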

How the data were processed

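The authors deposited raw read counts per gene symbol, whole numbers with no normalization, for the 9 samples. The tools named per the submitters' processing notes are DESeq, HTSeq and STAR, and the build is rn5. The role of each tool, versions and strand setting are not given in the sources used here, and reads shared with near-identical copies of a member were not examined. Groups and replicate numbers came from the sample titles.

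The members and gene lists were chosen with earlier results of these data known, and every member may be named. Values in every sample are given for a fixed set of members and, in each role, for those with the highest and lowest fold change against vehicle. Mcm10 falls outside this rule, and its values are given as well. From the other lists, the 3 highest and 3 lowest called genes are named. Genes were kept by filterByExpr (minimum count 10, minimum total 15), leaving 11873 of 17327. After TMM scaling, edgeR 4.0.16 (R 4.3.3) fitted 1 robust quasi-likelihood model to the 3 groups together. Benjamini-Hochberg adjustment ran over every gene in the test, and calls needed an adjusted p under 0.05. Each SE was obtained as the size of the log2 fold change over the root of F, and 95% intervals use it with 6 residual degrees of freedom. The quasi-likelihood test also draws on the spread shared across genes, with more degrees of freedom, so the intervals can be wider than its p-values imply. For Mcm4 with phenylephrine against vehicle, that test gave an unadjusted p of 0.047 beside an interval of -0.011 to 0.189. The code was tested on simulated data. Alternatives were DESeq2 1.42.0, limma-voom 3.58.1, other scaling, filters and thresholds, a fit of 2 groups, a replicate block and each sample left out.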

Additional observations from a re-analysis of the deposited data

How the results depend on the processing

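All counts of members called lower with IGF1 against vehicle, or higher with phenylephrine against IGF1, were 0 under every alternative. The count higher with IGF1 was 29 and ran from 26 to 32 when 1 sample was left out, and the count lower with phenylephrine against IGF1 was 31 and ran from 28 to 32. Against vehicle, the count higher with phenylephrine was 5 and ran from 3 to 7, and the count lower was 9 and ran from 8 to 11. Over all genes, 11906 to 12035 in those fits, calls higher with IGF1 against vehicle ran from 2394 to 3292. Those lower with phenylephrine against IGF1 ran from 2876 to 3638. With phenylephrine against vehicle, calls over all genes ran from 2849 to 3749 higher and from 3075 to 3875 lower. Requiring at least 1.5-fold gave 9 higher with IGF1, 10 lower with phenylephrine against IGF1, and 1 higher and 0 lower with phenylephrine against vehicle. An adjusted p of 0.01 left 3 higher with phenylephrine against vehicle, and the share of all genes at that threshold was not taken. Without TMM factors 1 was higher and 21 lower with phenylephrine against vehicle. The median of all genes was then -0.22 in place of -0.029, and calls over all genes were 1751 higher and 5696 lower in place of 3310 and 3429. For IGF1 against vehicle that scaling gave 2031 higher and 3614 lower over all genes in place of 2935 and 2781, and for phenylephrine against IGF1 2132 and 4366 in place of 3215 and 3222. It turned the phenylephrine values of Cdc6 (-0.13), Mcm2 (-0.16), Mcm3 (-0.11), Mcm4 (-0.11), Mcm6 (-0.083), Gins2 (-0.046), Rfc2 (-0.03), Rfc4 (-0.0602), Rpa1 (-0.18) and Lig1 (-0.18) negative, and the IGF1 values of Orc1 (-0.041), Mcm7 (-0.034), Rfc3 (-0.03) and Lig1 (-0.065). Of these, Gins2 had been called, and Mcm2, Rpa1 and Lig1 then passed as lower with phenylephrine. Cdt1, Mcm10, Pola1, Pold1, Pcna, Rfc5, Fen1, Rrm1 and E2f1 were negative but uncalled with phenylephrine in the main fit. With library-size scaling they also passed as lower (log2 -0.213 for Rrm1 to -0.425 for E2f1, adjusted p from 0.0042 to 0.041). The cause was not tested. Leaving out 1 sample turned the sign of some log2 fold changes near 0, all uncalled. With phenylephrine against vehicle, the ranges were Orc1 -0.139 to 0.086, Cdc6 -0.00176 to 0.135, Mcm2 -0.00548 to 0.0627, Gins1 -0.0602 to 0.0215, Rpa1 -0.0305 to 0.0412, Fen1 -0.0652 to 0.000253, Lig1 -0.0225 to 0.031, Rrm1 -0.0648 to 0.000427 and Chaf1b -0.15 to 0.0092. With IGF1 against vehicle, the ranges were Orc1 -0.0551 to 0.0887, Mcm7 -0.00654 to 0.0995, Rfc3 -0.0106 to 0.0775 and Lig1 -0.0137 to 0.0308. With phenylephrine against IGF1, the ranges were Orc1 -0.158 to 0.0462 and Lig1 -0.0163 to 0.0126. The replicate block gave 5 higher and 10 lower with phenylephrine, 29 higher with IGF1 and 30 lower with phenylephrine against IGF1. Over all 11873 genes it gave 3253, 3395, 2871 and 3145 in that order. It ended the call of Mcm2 in the last comparison (adjusted p = 0.059) and made E2f1 pass with phenylephrine (0.021). To see whether numbers pair samples, the log2 levels of each sample were taken as deviations from the mean of its group. Correlations of these deviations between same-numbered samples of 2 groups ran from -0.17 to 0.056. By these correlations, 0 of 6, 0 of 6 and 4 of 6 samples matched best with their own number in the 3 comparisons. The numbers were therefore not taken to pair samples.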
